A study of Mus musculus with 6 samples.

Results

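The genes described here are the nuclear-encoded parts of respiratory complexes II to V, measured by RNA sequencing in inguinal white fat (iWAT, a depot under the skin of the groin) from old mice. They were chosen by name and by protein-coding annotation: succinate dehydrogenase and its assembly factors (complex II), the ubiquinol-cytochrome c reductase genes and Cyc1 (complex III), Cycs, the cytochrome c oxidase subunit genes (complex IV) and the ATP synthase genes (complex V). The rule found 52 genes of 54532 in the deposited table. It leaves out Cox7a1 and Cox8b, the isoforms typical of brown fat and muscle, whose values are given only for comparison. Of the 52 members, 48 passed the filter on low counts. Cox7b2, Cox8c and a second entry of Atp5o had no count in any library, and Cox6a2 was too low in 5 of the 6 libraries.

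The study compared 3 libraries from vehicle-treated mice with 3 from estrogen-treated mice. All 6 came from animals kept in the cold for 7 days, so the cold is shared by both groups and no library without it was analysed here. The sources used here do not give strain, sex, exact age, or the dose and duration of estrogen. Whether the 6 libraries stand for 6 animals is not labelled either, so each p-value refers to the spread among these samples only, some of which may be technical. The stated question was how estrogen acts on beige adipocytes, the heat-producing fat cells that cold induces within white fat, in old animals.

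Complex II passes electrons from succinate to ubiquinone and is also an enzyme of the citric acid cycle. Complex III carries electrons from ubiquinol to cytochrome c, complex IV passes them on to oxygen, and complexes III and IV pump protons as they do so. Complex V, the ATP synthase, lets protons flow back to make ATP. In brown and beige adipocytes the uncoupling protein Ucp1 offers protons another way back, and the energy is released as heat.

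With estrogen the members lay a little higher in all 4 complexes. The median log2 fold change (estrogen over vehicle) of the 48 tested members was 0.41, or 1.33-fold, and 47 of them were positive (45 when libraries were scaled to total counts and 38 when scaled to adipocyte markers), where 50.3% of all 15591 tested genes were positive and the median of all genes was 0.00. By edgeR's quasi-likelihood test no member passed an adjusted p of 0.05 (smallest adjusted p = 0.207), and neither did any other gene (0%). At an unadjusted p under 0.05, 17 members (35.4%) were higher and 0 lower, where 9.49% of all tested genes were higher and 10.9% lower. DESeq2 called 1 member higher, Sdha, among 2.75% of genes called higher, with 3.34% called lower, and limma-voom called none. The DESeq2 shares here and below are of the 14026 genes to which it gave an adjusted p. In 19 members (39.6%) every estrogen library lay above every vehicle library, and in 0 below, against 12.8% and 14.7% of all genes.

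Abundant genes leaned the same way in these libraries. Among the 501 genes with a mean log2 CPM (counts as parts of the library's scaled total) of at least 8, a limit chosen after the levels were seen, 62.7% were positive with a median of 0.24, and 26.3% were higher at an unadjusted p under 0.05. The 20 members in that class were all positive with a median of 0.50, and 12 of them (60%) were higher at that p. Every estrogen library lay above every vehicle library in 9 of these members (45%), against 32.1% of the 501 genes. In percentage points that gap was narrower than the one over all genes (39.6% against 12.8%). At an unadjusted p under 0.05 it was not narrower in points than over all genes (35.4% against 9.49%), though it was smaller as a ratio. The 501 genes include these 20 members.

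The libraries did not separate cleanly. The plot of the mean level of each complex shows vehicle replicate 1 and estrogen replicate 1 side by side near 0, the other vehicle libraries below and the other estrogen libraries above. As log2 CPM minus each gene's mean over all 6 libraries, the members averaged 0.005, -0.306 and -0.28 in vehicle replicates 1, 2 and 3. They lay at 0, 0.365 and 0.216 in estrogen replicates 1, 2 and 3. Vehicle replicate 1 was the highest vehicle library for 40 of 48 members and lay above estrogen replicate 1 for 27. Estrogen replicate 1 was the lowest estrogen library for 39 members, and estrogen replicate 2 the highest for 37.

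**Figure D1:**
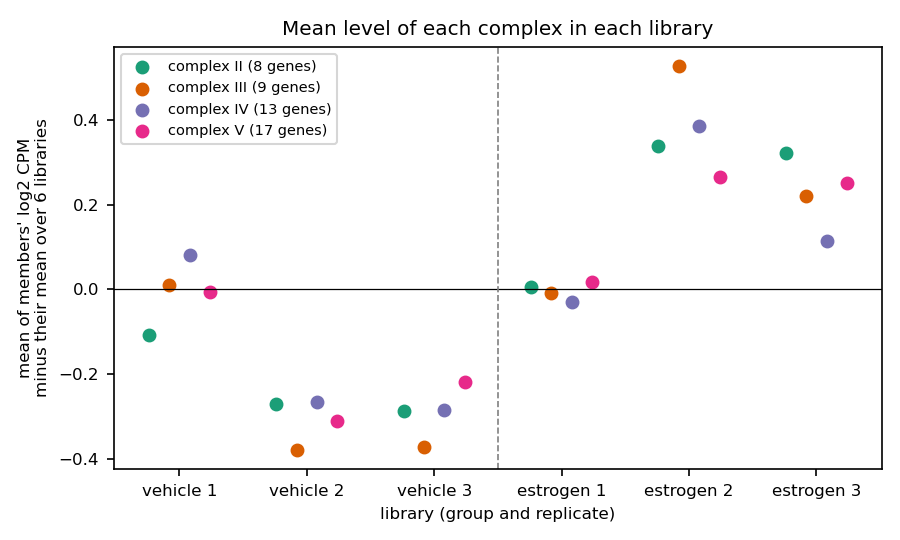
Mean level of complexes II, III, IV and V in each of the 6 libraries (x axis), as the mean of the tested members' log2 CPM minus their mean over all libraries (y axis); each point is a complex in a library. Complex III spans the widest range, from -0.378 in vehicle replicate 2 to 0.526 in estrogen replicate 2, and estrogen replicate 1 lies near vehicle replicate 1.

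How many members passed the unadjusted p depended on single libraries. It reached 30 when vehicle replicate 1 was left out and 25 when estrogen replicate 1 was, where 7.89% and 9.08% of all tested genes were higher at that p. It was 0 of 48 without vehicle replicate 2, 1 of 49 without vehicle replicate 3 and 2 of 49 without estrogen replicate 2, where the shares of all genes were 4.01, 6.27 and 9.49%, so in these 3 fits the members' share lay below that of all genes, a difference that was not tested. Without estrogen replicate 3 it was 14 of 49, against 7.02% of all genes. The count of members whose groups did not overlap was 44 without vehicle replicate 1, where 19% of all genes did so, and 36 without estrogen replicate 1, where it was likewise 19%. The member median stayed between 0.32 (without estrogen replicate 2) and 0.51 (without vehicle replicate 1 or estrogen replicate 1).

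Other cell types moved with the groups, and in bulk tissue fewer cells of a type and less RNA per cell cannot be told apart. Mature adipocyte markers were positive for 11 of 14 genes (median 0.50), with a summed level of 21140 to 31814 CPM in the vehicle and 30081 to 50602 CPM in the estrogen libraries. Fibroblast and progenitor markers were negative for 8 of 8 (median -1.14), at 11832 to 33472 CPM with vehicle and 1204 to 8288 CPM with estrogen. Most of that sum was collagen, with Col1a1 at 11338 and Col3a1 at 18902 CPM in vehicle replicate 2. These 2 genes had log2 fold changes of -2.36 and -2.06, and the others had -0.65 (Pdgfrb) to -1.81 (Pi16). In 6 of the 8 every estrogen library lay below every vehicle library (14.7% of all genes). Macrophage markers were negative for 6 of 6 (median -1.24), at 1819 to 2627 and 408 to 1405 CPM, and none of these 3 lists had a marker at 0 in any library. When the libraries were scaled to the adipocyte markers, the member median was 0.07, no member had an unadjusted p under 0.05 and none had groups that did not overlap, against 1.48% of all genes higher at that p and 2.28% with every estrogen library above. These shares are small, so counts of 0 do not set the members apart from other genes. With total-count scaling 2 members were higher and 4 did not overlap, against 3.78% and 5.34% of all genes, which is near those shares. Adipocyte-marker scaling shifted the median of all genes by -0.33, and total-count scaling by -0.17. Relative to the shift the member median was 0.40 under either of them. A scaling moves all genes nearly alike, so this value was all but fixed in advance and is no separate check.

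Brown or beige adipocyte markers were positive for 9 of 10 genes (median 0.50), at 812 to 1764 CPM with vehicle and at 1464, 3338 and 524 CPM with estrogen, so the groups overlapped. Ucp1 weighed most on that sum, at 1754 CPM in estrogen replicate 2 and 10.2 CPM in replicate 3. In replicate 3 the markers differed. Kcnk3 (129 CPM) and Ppargc1a (23.4 CPM) lay above every vehicle library. Ucp1, Cox8b, Cox7a1, Cpt1b and Prdm16 lay below every vehicle library, and the rest lay within their range. Among the other lists, skeletal muscle stood out in estrogen replicate 1, at 9811 CPM against 3.81 to 79.7 CPM with vehicle and 5.70 and 3.90 CPM in the other estrogen libraries, where Ckm, Myh4, Tnni2, Tnnc2 or Pvalb were at 0 in some libraries. Lymphocyte markers summed to 134 and 77.9 CPM in estrogen replicates 1 and 3 and to 2.90 to 4.95 CPM in the other 4. Neutrophil markers summed to 152 CPM in vehicle replicate 1 and to 23.3 to 34.8 CPM elsewhere. Endothelial markers were at 445 to 735 CPM in all libraries, and the mammary epithelial markers at most at 0.518 CPM, each at 0 in some library. Their part in the member levels was not tested.

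**Figure D2:**
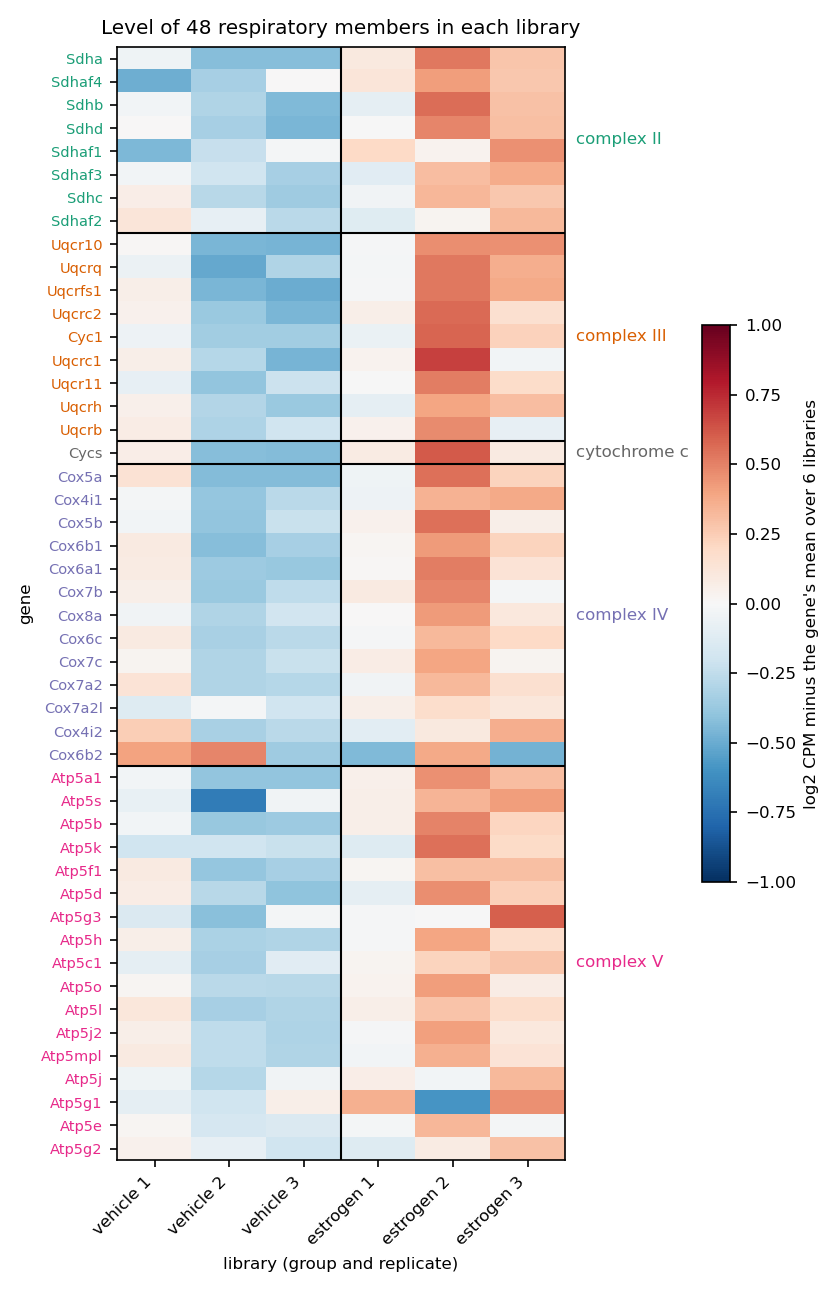
Level of each of the 48 tested members (rows, grouped by complex and ordered by fold change) in each library (columns), coloured by log2 CPM minus the gene's mean over the 6 libraries. Most rows are blue in vehicle replicates 2 and 3, pale in vehicle replicate 1 and estrogen replicate 1 and red in estrogen replicates 2 and 3, while Atp5g1 and Cox6b2 have another pattern.

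Complex II showed a median of 0.50 (1.41-fold), with 8 of 8 members positive. In it 4 were higher at an unadjusted p under 0.05 (9.49% of all genes). In 3 every estrogen library lay above every vehicle library (12.8% of all genes). Its 4 subunits had a median of 0.52 and its 4 assembly factors of 0.43. With adipocyte-marker scaling the complex II median was 0.15, and Sdhaf2 was at -0.21.

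Sdha, the flavoprotein that oxidises succinate (ENSMUSG00000021577, chromosome 13, 74322254 to 74350280, mm10), had 998, 768 and 767 CPM with vehicle (replicates 1, 2 and 3, the order used throughout) and 1099, 1483 and 1248 CPM with estrogen. Every estrogen library thus lay above every vehicle library. The log2 fold change was 0.60 ± 0.19 (SE), or 1.51-fold, with an adjusted p of 0.207 by edgeR and 0.0423 by DESeq2, and it lay between 0.48 and 0.73 with any 1 library left out. Sdhb, which carries the iron-sulfur clusters, was at 274, 228 and 206 CPM with vehicle and 263, 413 and 343 CPM with estrogen, so that estrogen replicate 1 fell within the vehicle range. Sdhd, a membrane anchor, was at 272, 216 and 198 CPM against 271, 382 and 335 CPM. It overlapped through the same pair of libraries, and Sdhb and Sdhd had log2 fold changes of 0.53 ± 0.20 and 0.52 ± 0.19. Sdhc, the other membrane anchor, had 0.37 ± 0.17.

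The assembly factors were expressed at far lower levels than the subunits. Sdhaf4, which assists the assembly of flavin-loaded Sdha, was at 10.6, 11.8 and 14.9 CPM with vehicle and 16.2, 19.9 and 18.0 CPM with estrogen, without overlap (log2 fold change 0.53 ± 0.18, edgeR adjusted p = 0.207). Sdhaf1, which takes part in iron-sulfur insertion into Sdhb, also did not overlap, at 4.42 to 5.99 CPM against 6.22 to 8.36 CPM. Sdhaf2, needed for attaching flavin to Sdha, had the smallest value of the complex (0.16 ± 0.16), with 34.3 to 44.9 CPM against 37.9 to 51.9 CPM, and was at 0.03 without estrogen replicate 3 and 0.26 without vehicle replicate 1. Sdhaf3 had 0.39 ± 0.21.

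Complex III had the highest median, 0.51 (1.43-fold), with 9 of 9 members positive. In it 6 were higher at an unadjusted p under 0.05 (9.49% of all genes). In 3 every estrogen library lay above every vehicle library (12.8% of all genes). The difference between the complexes was not tested. Without estrogen replicate 2 the median was 0.33, and with adipocyte-marker scaling it was 0.19.

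Uqcrfs1, the Rieske iron-sulfur protein, was at 485, 339 and 329 CPM with vehicle and 460, 669 and 603 CPM with estrogen, a log2 fold change of 0.59 ± 0.22. Cyc1, cytochrome c1, was at 388, 315 and 315 CPM against 384, 601 and 470 CPM (0.51 ± 0.20). In both redox subunits estrogen replicate 1 was just under vehicle replicate 1, so the groups overlapped. Uqcr10, a small subunit (ENSMUSG00000059534, chromosome 11, 4701973 to 4704342), had the highest value of all members, 0.61 ± 0.20 or 1.52-fold. It was at 227, 165 and 163 CPM against 224, 311 and 310 CPM (edgeR adjusted p = 0.207), and again overlapped through estrogen replicate 1 alone.

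Uqcrq, another small subunit, did not overlap, at 345, 252 and 291 CPM with vehicle and 354, 517 and 463 CPM with estrogen (0.59 ± 0.19). Uqcr11 did not overlap either, at 134, 109 and 122 CPM against 142, 203 and 162 CPM (0.47 ± 0.17), and the third was the core protein Uqcrc2 (0.52 ± 0.20). The core protein Uqcrc1 was at 415 to 596 CPM against 562 to 921 CPM. The highest of these was estrogen replicate 2, the other estrogen libraries (588 and 562 CPM) lay within the vehicle range, and the log2 fold change was 0.48 ± 0.24. Uqcrb had the lowest value, 0.30 ± 0.19, with 149 CPM in estrogen replicate 3 inside the vehicle range of 128 to 166 CPM, and it was at 0.12 without estrogen replicate 2. Its gene overlaps Gm10767 on the other strand.

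Cytochrome c links complexes III and IV. Cycs, its somatic gene, was at 304, 216 and 214 CPM with vehicle and 307, 443 and 309 CPM with estrogen. The groups did not overlap, but estrogen replicates 1 and 3 lay just above vehicle replicate 1. The log2 fold change was 0.53 ± 0.22 (edgeR adjusted p = 0.235) and 0.33 without estrogen replicate 2.

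**Figure D3:**
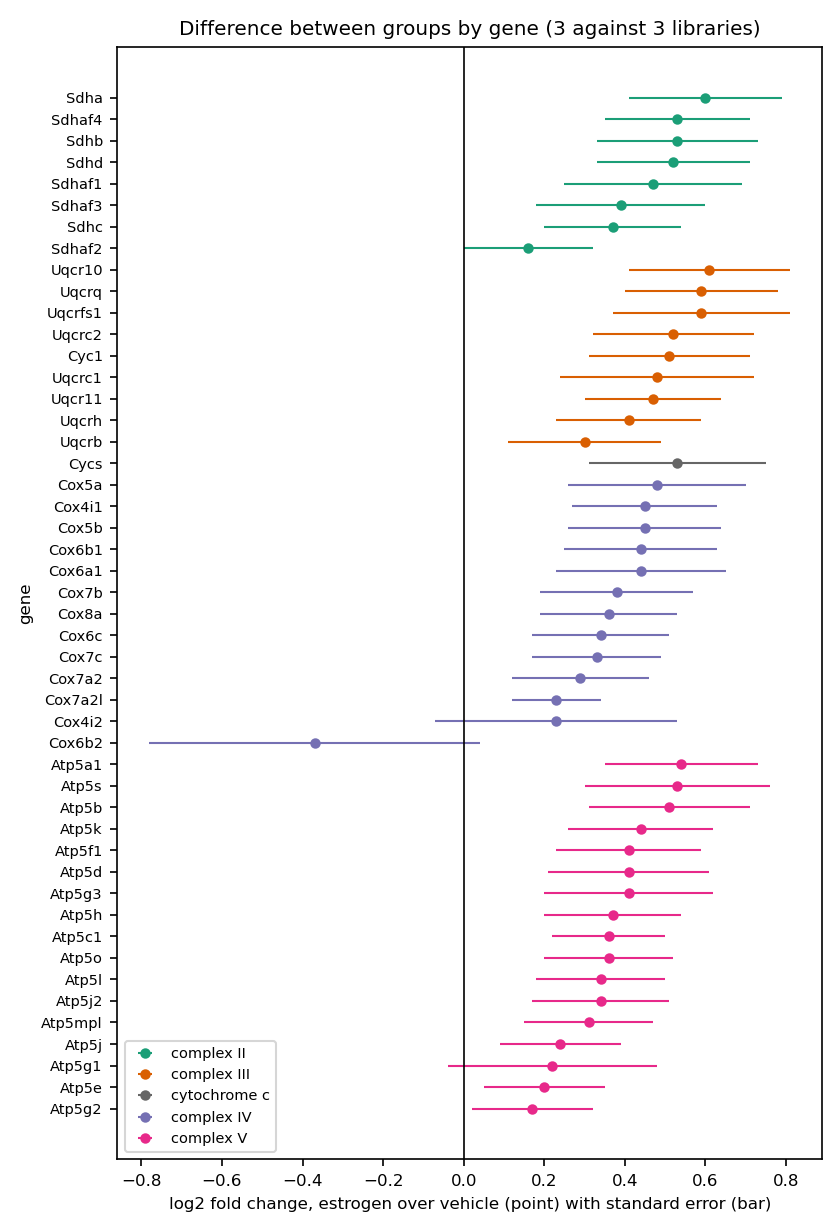
Log2 fold change, estrogen over vehicle, of each tested member (points) with its standard error (bars) on the x axis, by gene on the y axis and coloured by complex. Values run from -0.37 for Cox6b2 to 0.61 for Uqcr10, and 47 of 48 lie above 0.

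Complex IV had a median of 0.36 (1.29-fold) over 13 tested members, 12 of them positive. At an unadjusted p under 0.05, 2 were higher, too few to set the complex apart from the 9.49% of all genes. In 4 every estrogen library lay above every vehicle library (12.8% of all genes). The 11 ubiquitous nuclear subunits of complex IV were all positive, between 0.23 and 0.48. The complex IV median was 0.05 with adipocyte-marker scaling, where Cox7a2 was at -0.04 and Cox7a2l at -0.11.

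Cox4i1, the largest nuclear-encoded subunit (ENSMUSG00000031818, chromosome 8, 120668222 to 120674207), was at 827, 642 and 693 CPM with vehicle and 811, 1063 and 1087 CPM with estrogen. Only estrogen replicate 1 fell among the vehicle values, and the log2 fold change was 0.45 ± 0.18 (edgeR adjusted p = 0.230). Its gene overlaps Emc8 on the opposite strand, which had a mean of 904 counts beside 15400 for Cox4i1. Cox5b, a zinc-binding subunit, did not overlap, at 209, 162 and 183 CPM against 220, 312 and 223 CPM (0.45 ± 0.19). It was at 0.26 without estrogen replicate 2. Cox8a, a small membrane subunit, did not overlap either, at 488, 404 and 436 CPM against 500, 672 and 536 CPM (0.36 ± 0.17), and was at 0.23 without that same library. Cox7c separated the groups too (0.33 ± 0.16), though vehicle replicate 1 and estrogen replicate 3 were both at 250 CPM after rounding.

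Cox6b1, which faces the intermembrane space, was at 250 to 357 CPM against 340 to 451 CPM (0.44 ± 0.19). Cox6a1 was at 513 to 708 CPM against 673 to 952 CPM (0.44 ± 0.21, and 0.28 without estrogen replicate 2). Cox5a, Cox7b, Cox6c and Cox7a2 had 0.48, 0.38, 0.34 and 0.29, each with overlapping groups. Cox7a2 was at 0.45 without vehicle replicate 1, and Cox7b at 0.22 without estrogen replicate 2. Cox7a2l, which joins complexes III and IV into supercomplexes, had the smallest difference of the ubiquitous subunits (0.23 ± 0.11). It was also the tightest, at 106, 115 and 101 CPM against 121, 132 and 126 CPM, so that the groups did not overlap.

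The restricted isoforms of complex IV were low in most libraries, and 3 counts correspond to 0.145 to 0.187 CPM before scaling. Cox4i2, an oxygen-responsive isoform known from lung, was at 2.12 to 3.20 CPM with vehicle and 2.49 to 3.48 CPM with estrogen. Its log2 fold change was 0.23 ± 0.30, with values from 0.10 to 0.44 when 1 library was left out, and -0.12 with adipocyte-marker scaling. Cox6b2, known from testis, was at 2.13, 2.28 and 1.21 CPM against 1.14, 2.10 and 1.11 CPM. It was the only tested member with a negative value (-0.37 ± 0.41), which ranged from -0.73 to -0.21 with a library left out. Cox7b2 and Cox8c, both testis isoforms, had no count, which allows up to 3 counts in each library.

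Cox6a2, the heart and skeletal muscle isoform, had 7, 10 and 9 counts with vehicle and 760, 7 and 1 counts with estrogen. It was thus at 39.4 CPM in estrogen replicate 1, the library with 9811 CPM of skeletal muscle markers, a list that includes Cox6a2 itself, and at most at 0.506 CPM in the others. Per base of gene length it reached 6.04% of Cox6a1 in that library and at most 0.1% elsewhere. The 11 ubiquitous subunits averaged 0.014 in estrogen replicate 1 and 0.038 in vehicle replicate 1, as log2 CPM minus each gene's mean over all libraries.

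Cox7a1 and Cox8b, the isoforms that brown fat, heart and muscle use in place of Cox7a2 and Cox8a, followed another order of libraries. Cox7a1 was at 68.0, 44.9 and 22.8 CPM with vehicle and 45.3, 140 and 5.85 CPM with estrogen, and Cox8b at 285, 220 and 199 CPM against 240, 452 and 116 CPM. In both genes the estrogen group held the highest library, replicate 2, and the lowest, replicate 3. Ucp1 had the same extremes, 1754 CPM in estrogen replicate 2 and 10.2 CPM in replicate 3. Counted per base of gene length, Cox7a1 stood at 55.9, 50 and 25.1% of Cox7a2 with vehicle, and at 41.9, 101 and 4.73% with estrogen. Cox8b stood at 88.3, 82.3 and 69.1% of Cox8a, and at 72.6, 102 and 32.9%. Their log2 fold changes, 0.49 ± 0.92 and 0.20 ± 0.44 (edgeR adjusted p = 0.779 and 0.815), became -0.82 and -0.40 without estrogen replicate 2. In estrogen replicate 3, where the brown-fat isoforms were lowest, their ubiquitous partners were not low. Cox8a was at 536 CPM there, above the vehicle libraries (404 to 488 CPM). Cox7a2 was at 218 CPM, barely above vehicle replicate 1 (215 CPM). Both partners were higher in estrogen replicate 2, at 672 and 244 CPM.

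**Figure D4:**
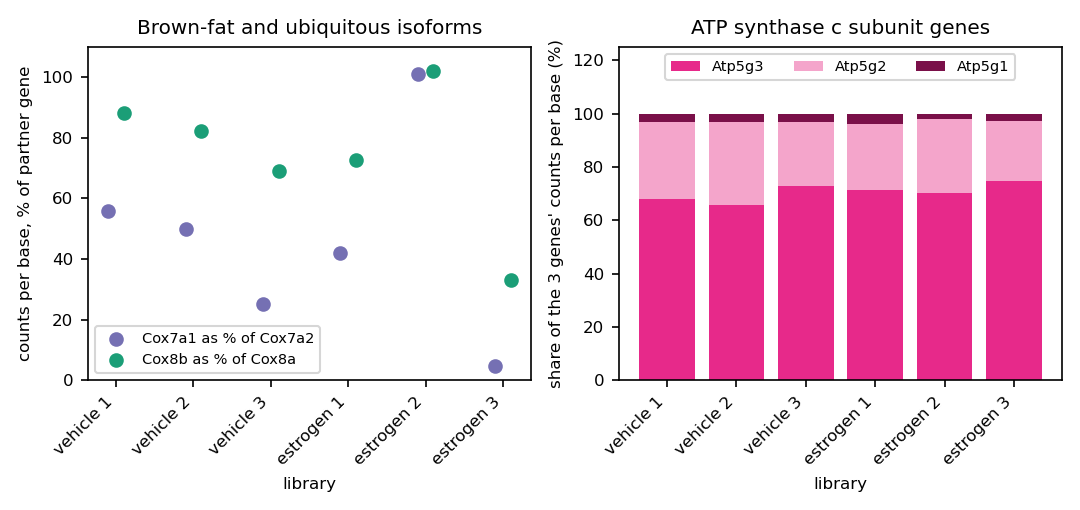
Left: counts per base of Cox7a1 and Cox8b as a percentage of Cox7a2 and Cox8a in each library, from 4.73% in estrogen replicate 3 to 102% in estrogen replicate 2. Right: share of each of the 3 ATP synthase c subunit genes in their summed counts per base (%), with Atp5g3 at 65.8 to 74.6% in all libraries.

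Complex V had a median of 0.36 (1.28-fold), with 17 of 17 tested members positive. In it 4 were higher at an unadjusted p under 0.05 (9.49% of all genes). In 8 every estrogen library lay above every vehicle library (12.8% of all genes). With adipocyte-marker scaling the median was 0.04. In the F1 head, which makes ATP, the 5 subunits had a median of 0.41, and the 4 tested subunits of the peripheral stalk had 0.36. The 4 other membrane subunits had 0.34, and the 3 genes of the proton-carrying c ring had 0.22.

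Atp5a1 and Atp5b encode the alpha and beta subunits, which form the catalytic hexamer of F1. Atp5b (ENSMUSG00000025393, chromosome 10, 128083273 to 128090391) was the most abundant member, at 2612, 2044 and 2068 CPM with vehicle and 2769, 3746 and 3083 CPM with estrogen. Atp5a1 (ENSMUSG00000025428, chromosome 18, 77773729 to 77782869) was at 1582, 1230 and 1228 CPM against 1667, 2219 and 2001 CPM. All estrogen libraries lay above all vehicle libraries in both, with estrogen replicate 1 nearest to vehicle replicate 1. Their log2 fold changes were 0.51 ± 0.20 and 0.54 ± 0.19 (edgeR adjusted p = 0.223 and 0.209). The gamma subunit gene Atp5c1, the central shaft, did not overlap either, at 336, 284 and 330 CPM against 365, 418 and 435 CPM (0.36 ± 0.14). Atp5d and Atp5e, the delta and epsilon subunits, were at 0.41 ± 0.20 and 0.20 ± 0.15, and their groups overlapped.

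The c ring genes Atp5g1, Atp5g2 and Atp5g3 make the same mature protein behind different import sequences. Atp5g3 was at 347, 287 and 377 CPM with vehicle and 380, 382 and 578 CPM with estrogen. These groups did not overlap, but the log2 fold change of 0.41 ± 0.21 rested on estrogen replicate 3, without which it was 0.18. Atp5g2 was at 114, 104 and 96.0 CPM against 101, 116 and 135 CPM (0.17 ± 0.15, and 0.06 without estrogen replicate 3). Atp5g1 was at 33.7, 31.1 and 37.3 CPM against 45.8, 23.8 and 49.2 CPM, a pattern unlike the other members because estrogen replicate 2, the highest library for most of them, was the lowest of all 6. Its log2 fold change of 0.22 ± 0.26 ran from 0.03 without estrogen replicate 3 to 0.48 without estrogen replicate 2. Both Atp5g2 and Atp5g1 turned negative with adipocyte-marker scaling, at -0.20 and -0.13. Per base, Atp5g3 supplied 65.8 to 72.7% of the 3 genes' counts with vehicle and 70.2 to 74.6% with estrogen, and Atp5g1 between 1.94 and 3.83% in all libraries.

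Of the peripheral stalk, which holds the F1 head in place, Atp5o separated the groups (140 to 171 CPM against 174 to 227 CPM, 0.36 ± 0.16), and so did Atp5j (111 to 133 CPM against 133 to 171 CPM, 0.24 ± 0.15), the latter by less than the rounding. Atp5f1 and Atp5h overlapped, at 0.41 and 0.37. Atp5j overlaps Gabpa and Atp5f1 overlaps Wdr77 on the opposite strand, and whether the counting used strand is not given in the sources used here. Atp5k, the e subunit at the dimer interface, was nearly constant with vehicle (58.4, 58.4 and 57.6 CPM) and at 61.4, 98.1 and 76.7 CPM with estrogen, without overlap. Its log2 fold change was 0.44 ± 0.18, and 0.25 without estrogen replicate 2. Atp5l, Atp5j2 and Atp5mpl had 0.34, 0.34 and 0.31 and overlapped. Atp5s was low, at 5.46 to 8.72 CPM against 9.33 to 12.0 CPM, without overlap (0.53 ± 0.23).

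Levels per length differed far more between subunits than between groups, although each complex holds its subunits in fixed numbers. On the CPM per kilobase scale, from the deposited gene lengths, the vehicle means of the ubiquitous complex IV subunits ran from 63.8 for Cox5a to 827 for Cox6a1. Complex II ran from 62.6 for Sdhc to 205 for Sdha, and complex III from 119 for Uqcrc1 and Uqcrc2 to 317 for Uqcr10. In complex V Atp5b was at 529. The c ring genes Atp5g3 and Atp5g1, which make the same mature protein, were at 154 and 6.93. Atp5s, which was not placed in any part of the enzyme here, was at 3.71. The deposited length of Atp5g1 is 4912 bases, against 2181 for Atp5g3, so these levels depend on which transcripts the annotation holds. With estrogen the same genes stood at 89.0 (Cox5a), 1120 (Cox6a1), 309 (Sdha), 482 (Uqcr10), 755 (Atp5b) and 8.06 (Atp5g1).

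Because most members lay higher in the same libraries, their promoters were searched for sites of factors known for respiratory genes. RefSeq promoter windows (GRCm38.p6, 250 bases before to 50 after the gene start) were found for 39 of 51 member symbols, 42 windows in all, and both strands were searched. The palindromic NRF1 motif was in 4 member windows (9.52%), those of Uqcrc1, Cox6a1, Atp5g2 and Atp5k, and in 0.971% of all 32851 windows. The ETS motif CCGGAAGT, which GABP binds, was in 4 (9.52%, against 3.89% of all), and the YY1 motif AAGATGGC in 3 (7.14%, against 2.75%). The estrogen-related receptor element was in 3 windows in its short form TGACCTTG (7.14%, against 1.56%) and in 2 in its longer form TCAAGGTCA (4.76%, against 0.423%), which contains the short one on the other strand. The full estrogen response element was in 0 member windows and in 0.07% of all. A match is a run of letters and not a measured site, and a missing match says only that these letters are not in the window.

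The stretches that follow, chosen after the matches were seen, show such motifs in members described above. Each is read 5′ to 3′ on the gene's strand, ends before the RefSeq gene start, lies outside the gene's own deposited coordinates and has the motif in capitals. They are examples of different motifs, on Atp5g3 (log2 fold change 0.41), Atp5l (0.34), Cox6a1 (0.44) and Uqcr11 (0.47). Members with such motifs also had lower values, as Atp5g2 with the NRF1 motif (0.17) and Atp5j with the YY1 motif (0.24). Whether a motif goes with a fold change was not tested.
Atp5g3, estrogen-related receptor element, long form, chr2:73911330-73911418, minus strand: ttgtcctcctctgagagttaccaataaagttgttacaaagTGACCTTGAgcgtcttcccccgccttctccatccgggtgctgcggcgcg
Atp5l, estrogen-related receptor element, short form, chr9:44920743-44920795, minus strand: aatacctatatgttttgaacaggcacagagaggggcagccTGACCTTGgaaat
Cox6a1, NRF1 motif, chr5:115349071-115349160, minus strand: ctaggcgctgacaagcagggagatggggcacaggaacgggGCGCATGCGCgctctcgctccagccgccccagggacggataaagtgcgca
Uqcr11, ETS motif, chr10:80406840-80406927, minus strand: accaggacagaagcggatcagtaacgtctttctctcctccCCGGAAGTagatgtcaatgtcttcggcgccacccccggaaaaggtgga

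The factors that bind such sites were not all on 1 side. Esrra, the estrogen-related receptor alpha, was at 92.3, 76.7 and 61.7 CPM with vehicle and 95.2, 126 and 101 CPM with estrogen, without overlap (0.48 ± 0.19, edgeR adjusted p = 0.222). Nrf1, Gabpa and Yy1 had values of -0.14, -0.21 and -0.02, and their groups overlapped. Among the 10 regulators listed, 2 were higher and 1 lower at an unadjusted p under 0.05. Such small counts do not set them apart from all genes, where the shares were 9.49% and 10.9%. Of the 10 regulators, 4 were positive and 6 negative (median -0.08), and 0 passed by edgeR. Their median was -0.36 with adipocyte-marker scaling, with 3 positive. DESeq2 called the coactivator gene Ppargc1b higher (2.01-fold in edgeR's fit, DESeq2 adjusted p = 0.00173) and the related coactivator gene Pprc1 lower (-0.59 ± 0.14, DESeq2 adjusted p = 0.0432). Of the 14026 genes to which it gave an adjusted p, it called 2.75% higher and 3.34% lower. The third coactivator gene of the list, Ppargc1a, had 0.17 ± 0.21 with overlapping groups and was not called. Pprc1 was at 30.2, 37.1 and 31.8 CPM against 21.1, 25.2 and 19.4 CPM, so it ran opposite to the subunits without overlap.

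Genes that serve these complexes without being counted as members were taken from fixed lists, and none passed by edgeR. Ubiquinone synthesis, which makes the carrier that complexes II and III share, had a median of 0.49 with 12 of 12 positive. Of its genes, 8 were higher at an unadjusted p under 0.05 (9.49% of all genes). DESeq2 called 3 of them higher (2.75% of all genes to which it gave an adjusted p). With adipocyte-marker scaling the median of this list was 0.13 and 10 were positive. Coq8a, an atypical kinase of the pathway, was at 132, 97.0 and 81.0 CPM with vehicle and 192, 295 and 194 CPM with estrogen. Its groups did not overlap and it had a larger value than any member, 1.14 ± 0.25 (adjusted p = 0.207 by edgeR and 0.00440 by DESeq2). Coq5, a methyltransferase, had 0.61 ± 0.14 and Coq9, a lipid-binding protein, 0.57 ± 0.15, also without overlap.

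Assembly factors of complex III had a median of 0.41, with 5 of 6 positive and 4 higher at an unadjusted p under 0.05 (9.49% of all genes). With adipocyte-marker scaling the median was 0.05, 4 were positive and 0 higher at that p (1.48% of all genes). Lyrm7, a chaperone of the Rieske protein, had a mean of 5.02 ± 0.845 CPM against 8.97 ± 2.66 CPM (SD, n = 3 each), without overlap, and a log2 fold change of 0.84 ± 0.28, and Uqcc1 and Uqcc3 had 0.50 and 0.37. Assembly factors of complex IV had a median of 0.29, with 19 of 21 tested genes positive. Higher at that p were 3, namely Cox19, Cox15 and Coa5 (0.53, 0.36 and 0.49). For 21 genes this is not far from the 9.49% of all genes. DESeq2 called Cox19, where it called 2.75% of the genes to which it gave an adjusted p higher. With adipocyte-marker scaling the list's median was -0.04. Coa4 was on the other side, at 5.01 to 5.69 CPM against 3.62 to 4.32 CPM (-0.45 ± 0.21). The supercomplex and respiratory factors Higd1a, Higd2a and Stoml2 had 0.51, 0.16 and 0.25, and their median was -0.08 with adipocyte-marker scaling.

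For the ATP synthase, Atpaf1, a chaperone of the F1 beta subunit, was at 12.9, 8.85 and 12.1 CPM with vehicle and 17.7, 17.4 and 18.1 CPM with estrogen (0.65 ± 0.17, adjusted p = 0.207 by edgeR and 0.0420 by DESeq2). Atpif1, the inhibitor that stops the enzyme from running in reverse, was at 23.3, 25.0 and 19.6 CPM against 14.4, 19.2 and 10.6 CPM. Its groups did not overlap and its direction was opposite to that of the subunits (-0.62 ± 0.23, unadjusted p = 0.0295, edgeR adjusted p = 0.214). DESeq2 did not call it (adjusted p = 0.149). Of the 5 genes in that list 4 were positive (median 0.33), and with adipocyte-marker scaling 3 were (median 0.02).

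The subunits of complexes III to V encoded on the mitochondrial chromosome were positive for 6 of 6 genes, with a median of 0.70 (0.32 with adipocyte-marker scaling and 0.47 without estrogen replicate 3). In sum the highest library was estrogen replicate 3, at 79724 CPM, and not estrogen replicate 2 (60512 CPM), which led among the nuclear members. That sum was nearly all mt-Co1 (57101 CPM) and mt-Cytb (21434 CPM). These were the 2 genes of the list in which every estrogen library lay above every vehicle library (12.8% of all genes). mt-Co2 was far lower and was highest in estrogen replicate 2 (479 CPM, against 468 CPM in replicate 3). mt-Atp8 had only 18 to 68 counts in a library.

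**Figure D5:**
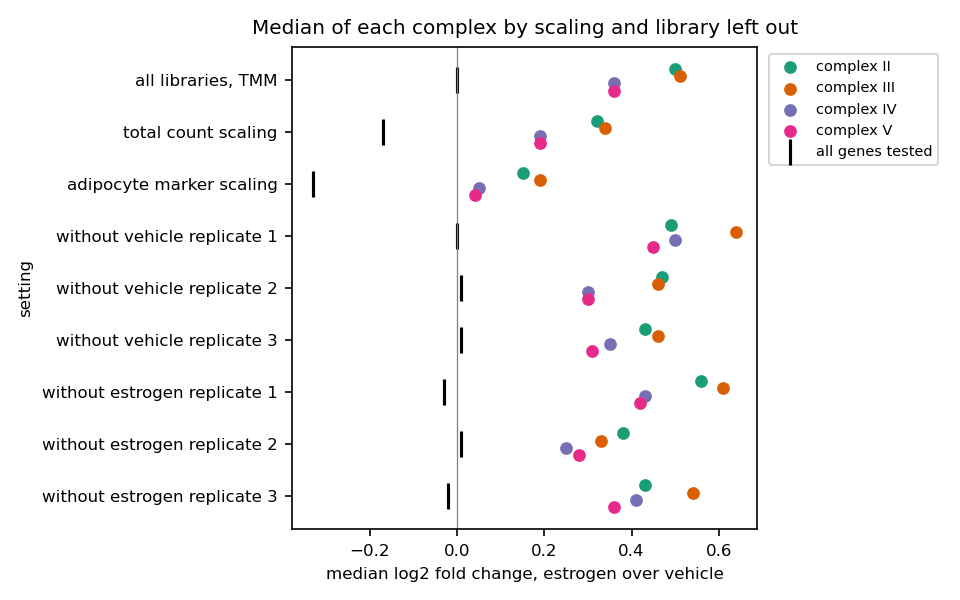
Median log2 fold change, estrogen over vehicle (x axis), of complexes II, III, IV and V (points) and of all genes tested (bars) under each scaling and with each library left out (y axis). All complex medians stay above 0, at 0.04 to 0.19 with adipocyte-marker scaling, where the median of all genes is -0.33, and at 0.25 to 0.64 with a library left out.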

How the data were processed

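Raw counts of reads for each gene, without normalization, were deposited by the authors with gene symbols, coordinates and gene lengths in bases, for 6 libraries. HISAT2, featureCounts and the mm10 build are named per the submitters' processing notes, with no versions. The sources used here do not give the strand setting, the treatment of reads with several matches or the annotation release. Total counts ran from 16046601 to 20736771 per library, and members took 1.30 to 2.08% of them. Groups and replicate numbers came from the sample titles, and the deposited columns number some libraries otherwise. No replicate pair agreed within sampling noise (chi-square per degree of freedom 41.7 to 88.6).

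Counts were filtered with filterByExpr, scaled by TMM and compared, estrogen against vehicle, by edgeR's quasi-likelihood test over 15591 genes with Benjamini-Hochberg adjustment and a threshold of 0.05. CPM values are TMM-scaled. The software was DESeq2 1.42.0 (run on the same filtered genes), limma 3.58.1 and edgeR 4.0.16 in R 4.3.3, and the tests were checked on simulated data. Members, lists and tests were chosen with earlier results of these data known. Named were, per complex, the 4 members of smallest p whose mean log2 CPM reached 1 and the member of lowest value, members called by DESeq2, and the isoform sets, and up to 3 genes of smallest p in each other list. Other genes were named after their values were seen. Of the genes named after members, 10 are pseudogenes with at most 16 counts in a library, and reads shared with such copies make the members' counts uncertain. Of the 52 members, 20 overlap another gene of the table.

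Alternatives were other scalings, among them by the mature adipocyte markers, other filters, the mitochondrial chromosome left out, DESeq2, limma-voom, a replicate block and each library left out.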

Additional observations from a re-analysis of the deposited data

How the results depend on the processing

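The complex medians were positive under every alternative run. With total-count scaling they were 0.32 in complex II and 0.19 in complex V, 2 members were higher at an unadjusted p under 0.05 (3.78% of all genes) and 4 did not overlap between groups (5.34% of all genes). With adipocyte-marker scaling they were 0.15, 0.19, 0.05 and 0.04 in complexes II to V, and both counts were 0 (1.48% and 2.28% of all genes). DESeq2 called 854 genes (386 higher and 468 lower) and 1 member, Sdha (0.61), against 0 by edgeR. With a library left out, the genes called ran from 0 to 13 (without estrogen replicate 2), the members called stayed at 0, the members higher at an unadjusted p under 0.05 ran from 0 to 30 and those without overlap from 18 to 44. The medians ran from 0.38 to 0.56, 0.33 to 0.64, 0.25 to 0.50 and 0.28 to 0.45 in complexes II to V. The cause of these changes was not tested.

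Direction changed in 15 values of named genes under the alternatives, against 434 that kept direction and side of the threshold. Sdhaf2 was at -0.02 and Atp5g2 at -0.01 with total-count scaling. With adipocyte-marker scaling Sdhaf2 was at -0.21, Atp5g2 at -0.20, Cox4i2 at -0.12, Cox7a2 at -0.04, Cox7a2l at -0.11, Atp5g1 at -0.13 and Cox8b at -0.05. These scalings moved the median of all genes to -0.17 and -0.33, and each of these values lay above that shift. Cox7a1 was at -0.26 with limma-voom and -0.27 with the replicate block, and at -0.82 to 1.04 with a library left out. Cox8b was at 0.00 with limma-voom and with the replicate block, and at -0.40 to 0.57 with a library left out.

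With the replicate number as a block 4 of 48 members were higher at an unadjusted p under 0.05, against 8.6% of all genes, so the members stood close to genes at large in that fit, and 0 were called. The numbers are those of the sample titles, and the deposited columns carry other numbers for 2 of the vehicle and 1 of the estrogen libraries. Correlations of deviations from so few libraries cannot decide whether the title numbers pair them. For same-numbered libraries they were -0.123, 0.163 and 0.289. Vehicle replicates 2 and 3 correlated best with the estrogen library of the same number, and vehicle replicate 1 with estrogen replicate 2 (0.168). Expression differences of this size were not separable from the spread between 3 libraries per group by edgeR after adjustment over all genes.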
